A study of Mus musculus with 6 samples.

Results

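Centrosome and cilium genes were taken as the protein-coding genes whose symbols are Cep, Ift, Bbs or Tctn followed by a digit. The annotation held 60 of them, namely 36 Cep, 14 Ift, 8 Bbs and 2 Tctn genes. Counts were listed for 55 of the 60, among 33676 genes with counts in all, and 53 passed the filter on low counts, among 14118 genes tested. Cep41, which the study names as the most significant gene of its chromosome between degenerated and control mice, is described beside the rest. It was thus picked from these same libraries, so its small p and high rank were partly set by that choice.

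Sequencing covered 3 control and 3 degenerated libraries of C57BL/6 mice, made from the modiolus, around which the cochlea coils and in which the spiral ganglion neurons (SGN) lie. Per the study's methods the mice were males aged 8 weeks at injection. The degenerated group had received 1 g/kg kanamycin sulfate and 0.4 g/kg furosemide, drugs that together destroy hair cells, and was taken on day 30, and the control group had received saline. The comparison asks which genes differ once SGN have degenerated after hair cell loss. The sources do not say whether each library came from a separate animal, so p-values measure only the spread between these libraries, which may be technical.

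The centrosome is a pair of centrioles in a protein matrix that organises microtubules, and one centriole can dock at the membrane as the basal body of a cilium. Intraflagellar transport (IFT) trains carry cargo along the ciliary axoneme, the BBSome carries membrane proteins on them, and the transition zone at the ciliary base gates what enters. Hair cells, supporting cells, glia and neurons of the cochlea can each carry a primary cilium or its basal body, and hair cells lose the kinocilium of their bundle as the mouse cochlea matures.

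The libraries held 12480876 to 15549319 counts. Neuronal markers were abundant, with a summed level of 11920 to 15160 CPM (counts scaled to the library's total) in control and 7022 to 10330 in degenerated libraries, and 10 of the 13 neuronal markers tested were lower in value in degenerated libraries. The modiolus also held RNA of other cells. Hair cell markers summed to 790.5 to 1112 CPM in control and 573.5 to 659.9 in degenerated libraries, and the outer hair cell genes Ocm and Slc26a5 were called lower among 10 tested. Supporting and epithelial markers summed to 1835 to 2077 and 2390 to 2976 CPM, and bone markers to 683.8 to 949.9 and 209 to 401.7 CPM. Macrophage markers summed to 463.7 to 577.1 and 554.9 to 731 CPM, with 3 of 6 tested higher in value and 3 lower, and C1qb and C1qc called higher. Red cell and marrow markers varied widely between libraries, at 6607, 49450 and 26040 CPM in control libraries and 7569, 4863 and 19460 CPM in degenerated libraries. All 8 that were tested were lower in value, and none was called by edgeR, DESeq2 or limma-voom or had an unadjusted p under 0.05 in edgeR's test. Skeletal muscle markers summed to 729.3 to 1189 CPM in control libraries, most in control replicate 3, and to 327.5 to 516.9 CPM in degenerated libraries. Most of each sum was Pvalb, which is also among the neuronal markers here. Pvalb had 817.3, 722.2 and 812.5 CPM in control and 511.9, 508.9 and 322.6 CPM in degenerated libraries. Acta1, Ckm, Myh1 and Myh4 had 54.68, 92.84, 62.4 and 103.2 CPM in control replicate 3 and at most 1.324 CPM in any other library. The part of these cells in the values below was not tested, and in such bulk RNA fewer cells of a type and less RNA per cell cannot be told apart.

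The centrosome and cilium genes did not move together, and Cep41, picked from these same data, differed most among those tested. A gene was called where the unadjusted p of edgeR's quasi-likelihood test was under 0.01 and the absolute log2 fold change above 0.2, cut-offs that the study states for another of its comparisons. By this rule 2 of 53 members were called, Cep41 and Ift140, both higher in degenerated libraries, and none was called lower. That is 3.77% of members tested, beside 2.73% of all genes tested, and 1.92% of the 52 members left when Cep41 is set aside. For calls of higher level alone, the share over all genes was 2.01%, and for lower 0.715%. In value 23 members were higher and 30 lower, and their median log2 fold change was -0.05, against -0.003 over all genes. Of all genes tested, 7016 were higher and 7102 lower in value. Genes share the same libraries, so counts of direction here and below are not counts of independent cases.

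In edgeR's test the adjusted p was under 0.05 for no member and for no other gene. At an unadjusted p under 0.05 there were 4 members, Cep41, Ift140, Cep85 and Tctn1, where 9.68% of all genes tested reached that level. DESeq2 called 3 members, Cep41, Ift140 and Cep85, and limma-voom Cep41 and Ift140. These tools called 5.56% and 2.76% of all genes by the same rule, and DESeq2 gave 381 genes (2.7%) an adjusted p under 0.05 and limma-voom 0.

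**Figure D1:**
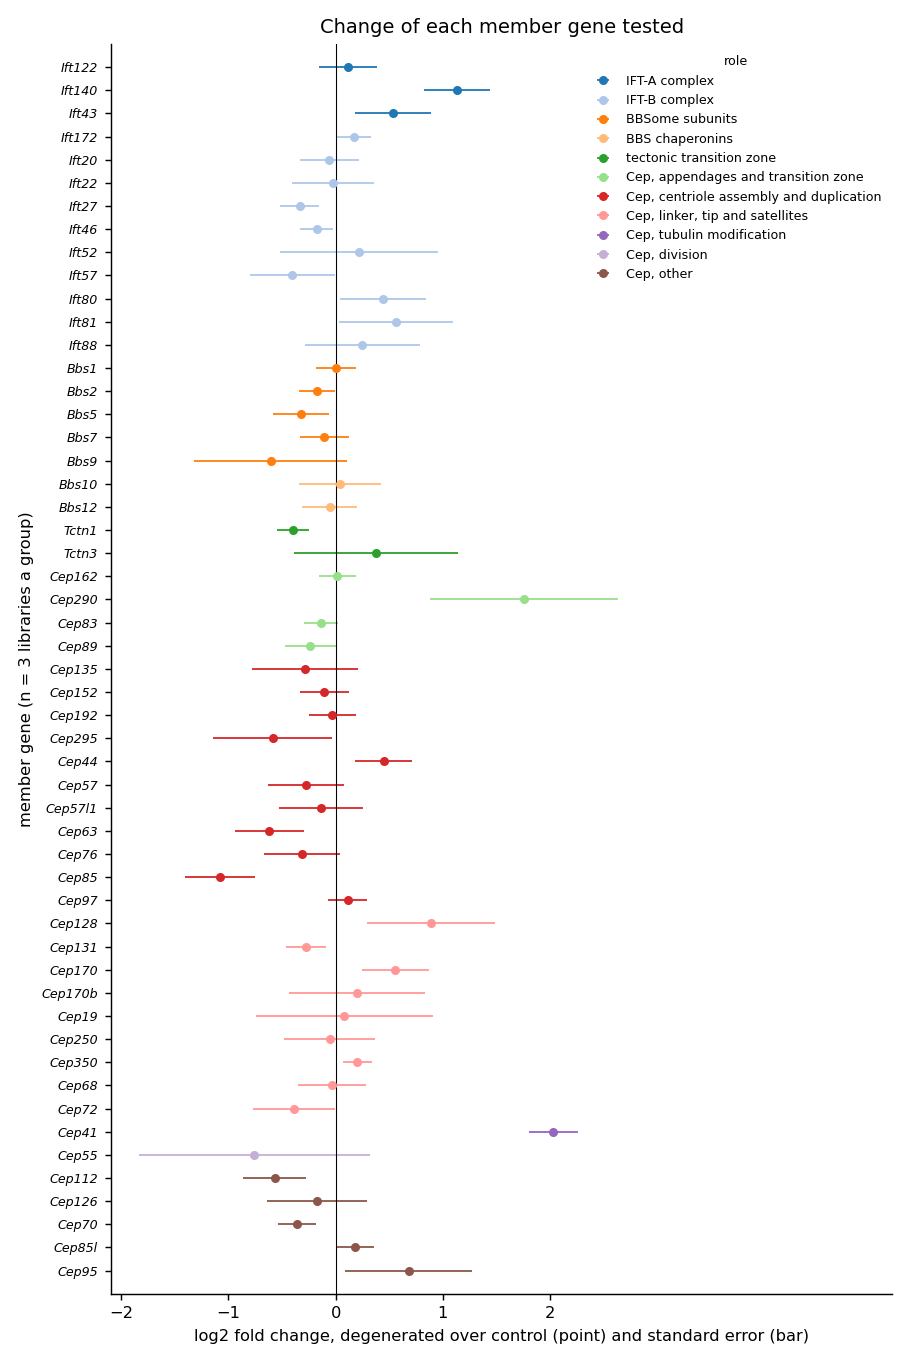
Log2 fold change of the 53 member genes tested, degenerated over control (horizontal axis), one gene a row, coloured by role. Points are estimates and bars standard errors with 3 libraries a group. Cep41 stands at 2.03 with a short bar, Cep290 at 1.76 with a long one, and most other genes lie near 0.

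The groups did not overlap for 6 members. Cep41 and Ift140 were higher in every degenerated library, and Cep85, Tctn1, Ift27 and Cep70 lower. These 6 are 11.3% of the members tested, beside 17.7% of all genes, of which 10.3% did not overlap upwards and 7.37% downwards.

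Cep41, which encodes a centrosomal and ciliary protein needed for glutamylation of axonemal tubulin, rose about 4-fold. It lies at chr6:30653457-30693749 on the minus strand (GRCm38, ENSMUSG00000029790). Its levels were 89.1, 60.5 and 85.8 CPM in control libraries and 305.4, 260.2 and 397.6 CPM in degenerated libraries. The lowest degenerated library was thus far above the highest control library. The means were 78.5 ± 15.6 and 321 ± 70.0 CPM (SD, n = 3), a 4.09-fold difference with a log2 fold change of 2.03 (SE 0.23, unadjusted p = 0.0001012, adjusted p = 0.0884 in edgeR's test). By p it ranked 16 among all genes tested. Per length, Cep41 went from 48.5 ± 12.3 to 248 ± 52.1 TPM (counts per transcript length, scaled to the library's total, over the listed transcripts), from rank 5 to rank 1 among the members.

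**Figure D2:**
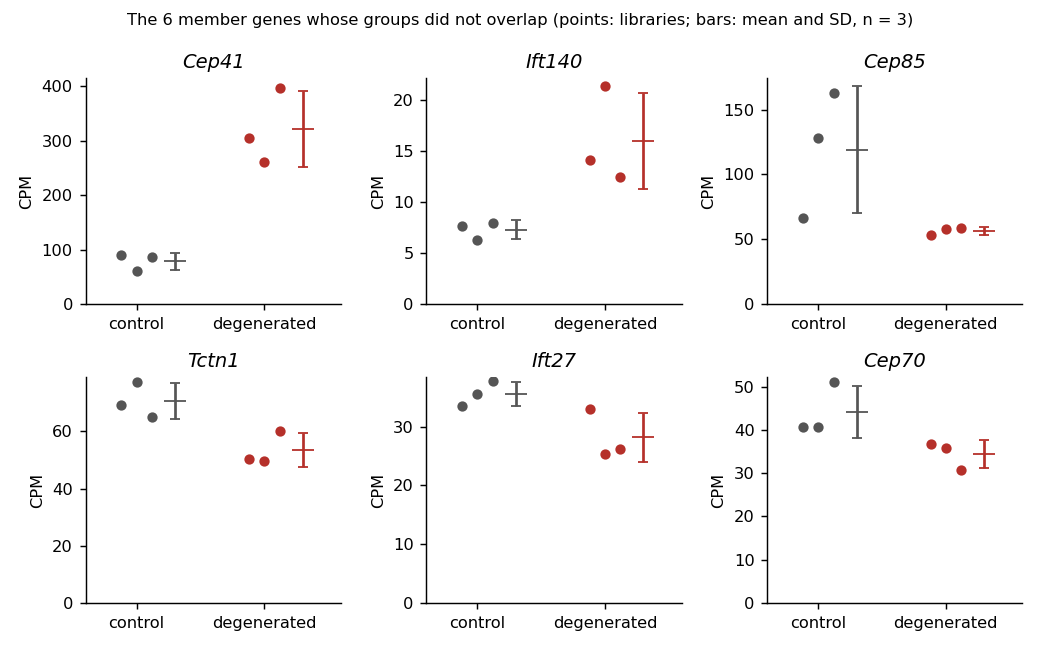
CPM of the 6 member genes whose groups did not overlap, with each library as a point and the mean and SD of 3 libraries as bars beside it. Cep41 and Ift140 are higher in degenerated libraries, and Cep85, Tctn1, Ift27 and Cep70 lower, with Cep85 widely spread among control libraries (66.1 to 163.2 CPM) and closely set among degenerated ones (53.0 to 58.3 CPM).

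The rise of Cep41 was counted mainly on Cep41-204, a transcript annotated to start inside the gene. Of its bases, 2300 are also in exons of the protein-coding Cep41-201. The authors' counting thus had to divide most reads between these transcripts, and how it did so is not known. The table lists 7 of the 10 annotated Cep41 transcripts. Cep41-204, annotated as a processed transcript of 2393 bases, had 134, 69 and 88 counts in control libraries and 2644, 2257 and 3011 in degenerated libraries. Every degenerated library held more than any control library by over an order of magnitude. Its mean went from 6.62 ± 2.23 to 191 ± 41.7 CPM (SD, n = 3), which is 28.9-fold (log2 fold change 4.85, SE 0.34, unadjusted p = 1.028e-05, adjusted p = 0.0536 over 26065 transcripts in edgeR's test), and it ranked 5 by p among all transcripts tested.

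Cep41-204 made up 9.96%, 8.07% and 6.55% of the gene's counts in control libraries and 59.2%, 61.1% and 59.8% in degenerated libraries. The share was narrow within each group, at 8.19% ± 1.71 and 60.0% ± 0.967 (SD, n = 3). Counts assigned to Cep41-204 held 77.3% of the gene's increase in CPM. Relative to the change fitted for the gene as a whole, its log2 change was 1.98 (unadjusted p = 4.03e-05, adjusted p = 0.0218 over 18254 transcripts in edgeR's differential usage test, chosen after the data were seen). For this test the counts of Cep41-206, another listed transcript, had been added to those of Cep41-201. The test was thus not run on the Cep41 transcripts as listed.

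**Figure D3:**
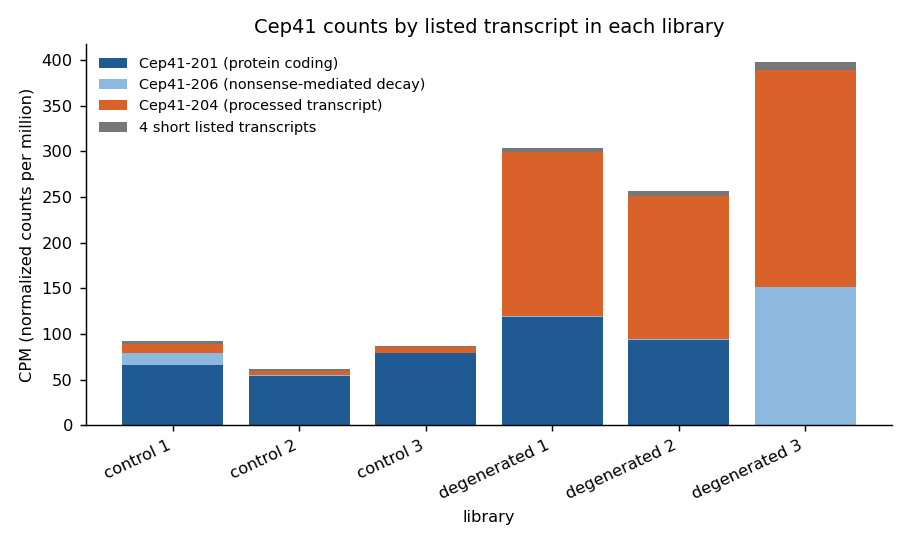
CPM of Cep41 in each library, stacked by listed transcript and scaled on the transcript table, so that totals differ slightly from those of the gene table. Cep41-204 is a thin band in the 3 control libraries (8.19% of counts on average) and the largest band in the 3 degenerated libraries (60.0%), while the full-length remainder is assigned mainly to Cep41-201 in 5 libraries and to Cep41-206 in degenerated replicate 3.

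Cep41-204 has 9 exons, against 11 of the protein-coding Cep41-201, and starts 24394 bases downstream of it, between exons 3 and 4 of that transcript. Of its 2393 bases, 2300 are in exons of Cep41-201, and the 93 bases of its first exon, at chr6:30669263-30669355, are in no other annotated Cep41 transcript. That exon, which alone tells it from the rest of the gene by sequence, reads as follows from the GENCODE M21 transcript (GRCm38, minus strand), with the first ATG of its longest reading frame in capitals.
first exon of Cep41-204: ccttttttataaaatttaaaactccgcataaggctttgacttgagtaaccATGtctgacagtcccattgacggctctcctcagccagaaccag
The frame from this ATG, at base 51, runs for 339 codons and ends at the same stop as that of Cep41-201, whose longest frame starts at base 81 and runs for 373 codons. The annotation marks Cep41-204 as non-coding.

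**Figure D4:**
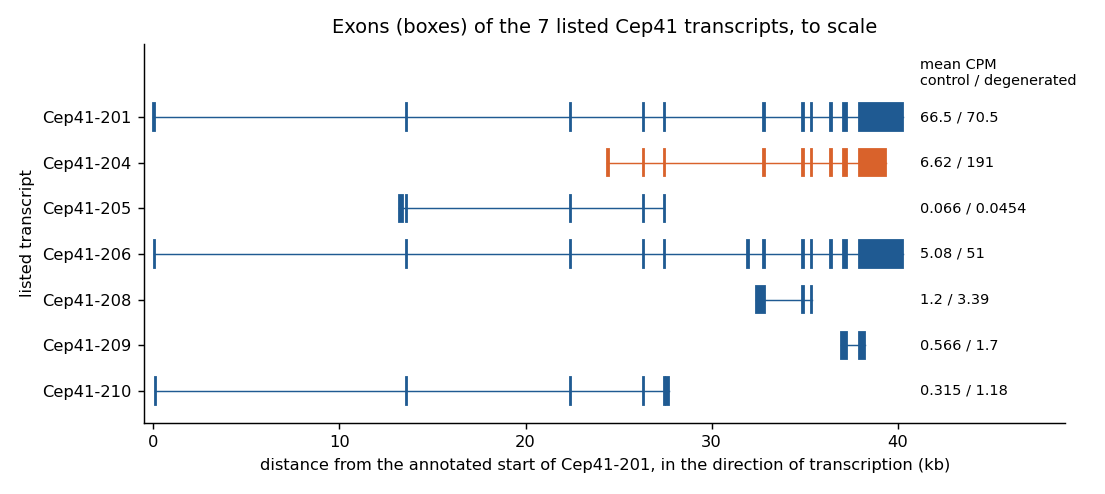
Exons (boxes) and introns (lines) of the 7 listed Cep41 transcripts against the distance from the annotated start of Cep41-201 in kb, to scale, with the mean CPM of each group at the right. Cep41-204 starts 24394 bases into the gene and its exons after the first lie in exons of Cep41-201, which starts at 0.

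The full-length transcripts did not meet the call rule. Cep41-201 had 962, 749 and 1226 counts in control libraries and 1738, 1343 and 1 in degenerated libraries. Cep41-206, a variant annotated for nonsense-mediated decay, had 206, 11 and 6 counts in control and 15, 14 and 1915 in degenerated libraries. Degenerated replicate 3 thus had nearly all of these counts in Cep41-206 and the other degenerated libraries in Cep41-201. The only annotated bases of Cep41-206 outside Cep41-201 are 133, so the authors' counting had to divide most reads between them, and neither passed the test alone (log2 fold changes 0.09 and 3.33, unadjusted p = 0.959 and 0.221 in edgeR's test).

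Summed, a step chosen after the data were seen, these full-length transcripts had 1168, 760 and 1232 counts in control and 1753, 1357 and 1916 in degenerated libraries. All 3 degenerated libraries were above all control libraries. The sum was 1.70-fold higher, from 71.5 ± 14.3 to 122 ± 28.6 CPM (SD, n = 3, log2 fold change 0.76, SE 0.25), and held 20.9% of the increase. It did not meet the call rule (unadjusted p = 0.0214, adjusted p = 0.607 in edgeR's test). Cep41 without Cep41-204 had a log2 fold change of 0.84 (SE 0.23, unadjusted p = 0.0106 in edgeR's test), just outside the rule.

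Short Cep41 transcripts had few counts. The retained-intron transcript Cep41-209 had 7, 7 and 11 counts in control and 18, 24 and 28 in degenerated libraries and was called (log2 fold change 1.57, unadjusted p = 0.00939 in edgeR's test), but lost the call when any 1 library was left out. Cep41-208 had 34, 15 and 3 against 37, 42 and 60 counts, and Cep41-210 had 2, 4 and 8 against 11, 14 and 23. Cep41-205 had at most 2 counts in a library. Of 109 transcripts of members that were tested, Cep41-204 and Cep41-209 alone were called, where 1.79% of all transcripts tested were called and 0.0153% had an adjusted p under 0.05.

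Anterograde and retrograde transport are the work of the IFT-B and IFT-A complexes, and of 13 Ift genes tested 8 were higher and 5 lower in value, with a median log2 fold change of 0.18. All 3 IFT-A genes tested under Ift symbols were higher in value. The IFT-A subunits under other names, Wdr19, Wdr35 and Ttc21b, were lower in value (log2 fold changes -0.139, -0.186 and -0.428). Ift140, a core IFT-A subunit at chr17:25016085-25099495, had 7.61, 6.23 and 7.98 CPM in control libraries and 14.1, 21.3 and 12.5 CPM in degenerated libraries. The groups did not overlap, at means of 7.27 ± 0.92 and 16.0 ± 4.72 CPM (SD, n = 3). It was called higher, with a log2 fold change of 1.13 (SE 0.31, unadjusted p = 0.00958, adjusted p = 0.362 in edgeR's test). The call rested on all 6 libraries, since leaving out any 1 of them ended it, at log2 fold changes of 0.86 to 1.28. Except in control replicate 1, most of its counts were of the protein-coding Ift140-205, with 44, 87 and 96 counts in control and 200, 278 and 146 in degenerated libraries.

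The other IFT-A genes with Ift symbols did not pass. Ift43 went from 20.9, 9.20 and 14.3 CPM to 22.9, 24.7 and 16.7 CPM, which overlap, with a log2 fold change of 0.54 (SE 0.36). Ift122, another core subunit, had a log2 fold change of 0.12 (SE 0.27).

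Among 10 IFT-B genes tested, 5 were higher and 5 lower in value (median log2 fold change 0.08), with log2 fold changes between -0.40 and 0.56. No IFT-B gene was called by edgeR, DESeq2 or limma-voom, and none had an unadjusted p under 0.05 in edgeR's test. Ift172, a large IFT-B subunit, had 110, 84.5 and 81.3 CPM in control and 99.4, 113 and 99.5 CPM in degenerated libraries. The groups overlapped, at a log2 fold change of 0.18 (SE 0.16). Ift27, a small GTPase that links IFT-B to BBSome exit from cilia, had 33.6, 35.5 and 37.7 CPM in control and 33.0, 25.4 and 26.2 CPM in degenerated libraries. Each degenerated library was below each control library, the nearest ones by under 1 CPM, and the difference did not pass (log2 fold change -0.33, SE 0.18, unadjusted p = 0.116 in edgeR's test). Ift74 was listed with 1 of its 3 transcripts and was too low to test.

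BBSome genes were lower in value in 4 of 5 cases, with a median log2 fold change of -0.17, and none of the 5 was called by edgeR, DESeq2 or limma-voom or had an unadjusted p under 0.05 in edgeR's test. Bbs2, the BBSome gene with the highest level per length (56.3 ± 12.3 TPM in control and 56.6 ± 2.63 in degenerated libraries, SD, n = 3), had 90.8, 62.8 and 82.2 CPM against 72.5, 70.2 and 66.7 CPM, and a log2 fold change of -0.17 (SE 0.17). Bbs5 went from 19.5, 17.1 and 24.2 CPM to 20.3, 14.7 and 13.6 CPM, with a log2 fold change of -0.32 (SE 0.26). Both groups of both genes overlapped.

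Bbs9 had 23.4 to 28.8 CPM in 5 libraries and 3.08 CPM in degenerated replicate 3. Its long transcripts changed places between libraries, as Bbs9-209 had 299, 291 and 254 counts in control and 0, 163 and 0 in degenerated libraries, while Bbs9-211 had 30, 0 and 64 against 340, 66 and 8. Bbs4 was listed with 1 of its 4 transcripts, at 0 counts in every library. Bbs10 and Bbs12, chaperonin-like proteins that help to assemble the BBSome, had log2 fold changes of 0.04 (SE 0.38) and -0.06 (SE 0.25).

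At the transition zone, Tctn1 was lower in value and Tctn3 was low in every library. Tctn1, a membrane-associated tectonic protein, had 69.2, 77.4 and 65.1 CPM in control libraries and 50.4, 49.6 and 60.3 CPM in degenerated libraries. The groups did not overlap, at 70.6 ± 6.27 and 53.4 ± 5.96 CPM (SD, n = 3). The log2 fold change was -0.40 (SE 0.15, unadjusted p = 0.0350, adjusted p = 0.479 in edgeR's test), which does not meet the call rule. Exons of Tctn1 share 1574 bases with Hvcn1 on the other strand, and the sources used here do not say whether counting used strand. Tctn3 had under 2 CPM in every library and a log2 fold change of 0.38 (SE 0.76).

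Cep290, which builds the links between axoneme and membrane in the transition zone, differed most after Cep41, but not beyond its spread. It had 11.7, 5.52 and 18.7 CPM in control libraries and 6.16, 63.5 and 51.9 CPM in degenerated libraries. Degenerated replicate 1 lay among the control libraries and the other 2 well above them (log2 fold change 1.76, SE 0.88, unadjusted p = 0.0931 in edgeR's test). Without degenerated replicate 1 the gene met the call rule, at a log2 fold change of 2.26 (unadjusted p = 0.00761 in edgeR's test). Its long protein-coding transcript Cep290-206 had 0, 0 and 212 counts in control and 0, 733 and 446 in degenerated libraries. Cep83, a distal appendage protein needed for docking of the basal body, was among the most abundant members per length (63.3 ± 9.52 and 61.6 ± 9.99 TPM, SD, n = 3), and its log2 fold change was -0.14 (SE 0.16).

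Genes of centriole assembly and duplication were lower in value in 9 of 11 cases, with a median log2 fold change of -0.28. None was called by edgeR or limma-voom, DESeq2 called 1 of them, Cep85, and 1 of the 11 had an unadjusted p under 0.05 in edgeR's test, again Cep85. Cep85, which restrains separation of the centrosomes and takes part in centriole duplication, had 66.1, 128.1 and 163.2 CPM in control libraries and 53.0, 57.6 and 58.3 CPM in degenerated libraries. All degenerated libraries were below all control libraries, of which replicate 1 was the nearest. The means were 119 ± 49.2 and 56.3 ± 2.86 CPM (SD, n = 3), with a log2 fold change of -1.08 (SE 0.33, unadjusted p = 0.0164, adjusted p = 0.409 in edgeR's test). Without control replicate 1 the gene met the call rule, at -1.38 (unadjusted p = 0.000233 in edgeR's test). Red cell and marrow markers summed to 6607, 49450 and 26040 CPM in control libraries and 7569, 4863 and 19460 CPM in degenerated libraries. Bone markers summed to 696.6, 949.9 and 683.8 CPM in control libraries and 310.5, 209 and 401.7 CPM in degenerated libraries. The part of these markers' cells in the value of Cep85 was not tested.

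Cep85 was counted almost wholly as Cep85-207, a processed transcript of 1010 bases with 996, 1809 and 2555 counts in control and 770, 703 and 737 in degenerated libraries (log2 fold change -1.19, unadjusted p = 0.0135 in edgeR's test). Protein-coding transcripts held 1.38% of the gene's counts over all libraries, so the value describes mainly that short transcript. By library this share was 12.96% in degenerated replicate 2 and 0% in every other library. Per length Cep85 was the most abundant member in control libraries, at 213 ± 81.8 TPM, and the second in degenerated libraries, at 107 ± 6.50 TPM (SD, n = 3). Cep57, a pericentriolar scaffold protein, had 8.94, 17.3 and 9.51 CPM against 10.7, 7.96 and 10.9 CPM and a log2 fold change of -0.28 (SE 0.35).

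Markers of dividing cells varied more between libraries than between groups. Over 13 genes, they summed to 37.5, 941 and 430.1 CPM in control libraries and 147.5, 102.8 and 636.1 CPM in degenerated libraries, all 10 that were tested were lower in value, and none of them was called by edgeR, DESeq2 or limma-voom (1 had an unadjusted p under 0.05 in edgeR's test). Cep55, which acts at abscission at the end of cell division, had 0.596, 14.6 and 7.15 CPM in control and 2.12, 2.89 and 8.21 CPM in degenerated libraries. It was lowest in the library where the dividing-cell markers were lowest and highest where they were highest. Its log2 fold change was -0.76 (SE 1.08, unadjusted p = 0.507 in edgeR's test). The part of dividing cells in the values of the centriole genes was not tested.

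Linker, tip and satellite proteins, which tether centrioles or surround them, were higher in value in 5 of 9 cases (median log2 fold change 0.08). None was called by edgeR, DESeq2 or limma-voom or had an unadjusted p under 0.05 in edgeR's test. Cep350, a large centriolar and microtubule-anchoring protein, had 133, 152 and 135 CPM in control and 137, 168 and 177 CPM in degenerated libraries, with a log2 fold change of 0.20 (SE 0.14). Cep170, a protein of the subdistal appendages, had 66.9, 38.2 and 36.2 CPM against 55.1, 63.9 and 89.0 CPM, with a log2 fold change of 0.56 (SE 0.31). The groups of both genes overlapped.

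Of the remaining Cep genes, Cep70 had 40.6, 40.8 and 51.1 CPM in control libraries and 36.7, 35.9 and 30.6 CPM in degenerated libraries. The groups did not overlap, and the difference did not pass (log2 fold change -0.36, SE 0.18, unadjusted p = 0.0863 in edgeR's test). Cep85l, a paralogue of Cep85, had 106, 84.0 and 85.2 CPM against 108, 119 and 85.5 CPM, with a log2 fold change of 0.18 (SE 0.18). The 5 members without a listed transcript were not analysed here.

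**Figure D5:**
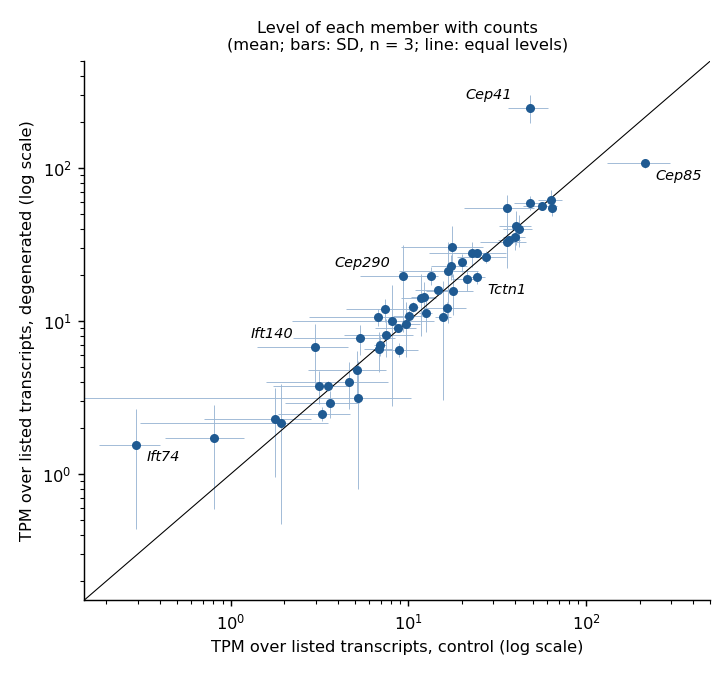
Mean TPM over the listed transcripts of each member with counts, control (horizontal) against degenerated (vertical), both axes on a log scale, with SD bars over 3 libraries and a line of equal levels. Most members lie along the line, with Cep41 above it (48.5 and 248 TPM) and Cep85 below it (213 and 107 TPM).

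The summed level of all members was 1660 to 1794 CPM in control and 1796 to 2028 CPM in degenerated libraries. Without Cep41 it was 1574 to 1705 and 1490 to 1676 CPM. Other abundant members per length were Ift27 at 64.1 and 54.7 TPM, Ift172 at 48.3 and 59.2 TPM and Ift43 at 35.8 and 54.4 TPM.

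Replicates differed widely for a part of the members. The highest control library exceeded the lowest more than 3-fold for 9 of 53 members, and the same held for 9 in the degenerated group. The median ratio was 1.69 in control and 1.40 in degenerated libraries. A mean level under 10 CPM was found for 14 members. Transcripts annotated as protein-coding held over 90% of the counts for 34 members and under 10% for 5, namely Cep126, Cep128, Cep85, Ift20 and Ift88. Exons of 15 tested members share bases with another annotated gene, in 14 of them on the opposite strand, Tctn1, Cep290 and Cep70 among them, while Cep41, Ift140 and Cep85 share none.

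RFX transcription factors, known regulators of ciliary genes, bind an X-box made of 2 inverted half-sites. Promoters, from 250 bases before to 50 after the start of a gene, were taken from RefSeq (GRCm38.p6) and searched for the half-site GTTGCC on either strand. They matched 51 of the 60 members by symbol. The half-site stood in 19 of 58 member promoters (32.8%), beside 4111 of 32851 promoters of all genes (12.5%). By family it stood in 9 of 37 Cep promoters (24.3%), 5 of 11 Ift promoters (45.5%), 3 of 8 Bbs promoters (37.5%) and both Tctn promoters.

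A pair of half-sites in opposite orientation, no more than 3 bases apart, stood in 53 promoters of all genes (0.161%) and in 2 of members, those of Cep41 and Tctn1. These windows are shown because they carry the only such pairs among members. Cep41 was called higher, and Tctn1 was not called. Capitals mark the half-sites, the Cep41 window is chr6:30693856-30693890 and the Tctn1 window chr5:122264411-122264434, both on the minus strand.
Cep41 promoter, half-site pair: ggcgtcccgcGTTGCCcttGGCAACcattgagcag
Tctn1 promoter, half-site pair: ggctgtgactGTTGCCcgGGCAAC
The Cep41 pair ends 116 bases before the start of the gene, and so lies before the start of Cep41-201 and not near that of Cep41-204. The Tctn1 pair lies just after the start of the gene. Of the 18 member genes with a half-site, 17 were tested, and 10 were higher and 7 lower in value, such as Ift140 (log2 fold change 1.13) and Ift88 (0.25) on one side and Ift27 (-0.33) and Cep112 (-0.57) on the other.

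Related genes that the symbols leave out were read from 9 lists, of IFT and BBS proteins under other names, IFT motors, the MKS and NPHP modules of the transition zone, core centrosome proteins, tubulin glutamylation, Hedgehog signalling, RFX and FOXJ1 regulators, and motile cilia. Of 138 genes 108 were tested, 59 were higher and 49 lower in value, and their median log2 fold change was 0.09. None was called in either direction by edgeR, and 4 had an unadjusted p under 0.05. DESeq2 called 2, Ptch1 and Cdk5rap2, and limma-voom 1, Poc1b, which are named for that reason after their values were seen. Over all genes tested, edgeR called 2.73% and gave 9.68% an unadjusted p under 0.05. The shares called over all genes were 5.56% with DESeq2 and 2.76% with limma-voom.

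Tubulin glutamylation, the process in which Cep41 takes part, had 15 of 19 genes tested, 6 higher and 9 lower in value, with a median log2 fold change of -0.07. Hedgehog signalling, which runs through the cilium, had 11 higher and 3 lower of 14 tested (median 0.24), and summed levels of 855.7 to 1038 CPM in control and 1121 to 1191 CPM in degenerated libraries. IFT motors had 4 higher and 5 lower of 9 (median -0.08), and transition zone modules 7 higher and 10 lower of 17 (median -0.04). Core centrosome genes had 11 higher and 11 lower of 22 (median 0.01).

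IFT subunits under other names had 3 higher and 5 lower of 8 (median -0.16), and BBS proteins under other names 4 higher and 2 lower of 6 (median 0.27). RFX and FOXJ1 regulators had 4 higher and 1 lower of 5 (median 0.47), with most of that list untested. Genes of motile cilia had 9 higher and 3 lower of 12 (median 0.15), with a summed level of 100.7 to 159.6 CPM in control and 118.2 to 206.2 CPM in degenerated libraries. Single genes of this list differed widely in level. Tekt1 was at 0 counts in every library, and Dnah9, Spag6l, Spag17 and Drc1 reached at most 0.684 CPM in any library. Hydin, Cfap44 and Dnah11 were among those with higher levels. Their control means were 21.4, 16.49 and 16.35 CPM, and their degenerated means 18.7, 21.96 and 19.55 CPM. Foxj1, Dnah5 and Rsph4a were not analysed here.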

How the data were processed

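The 3 control and 3 degenerated libraries were mapped to groups by the labels. The study's methods name Hisat2 for alignment and StringTie for expression, and the submitters' processing notes name Bowtie 0.12.2 and the builds mm8 and mm10 without a role. The sources used here do not give the counting step or its annotation. Values as deposited by the authors are raw counts per Ensembl transcript. The table lists 65535 transcripts, not all of those of a gene, so a change in transcript use can change a gene's counted part. Counts were summed per gene of GENCODE M21, leaving out 263 unmatched transcripts (0.125% of counts).

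Libraries held 12480876 to 15549319 counts. Genes and, separately, transcripts were fitted in edgeR 4.0.16 (R 4.3.3, filterByExpr, TMM factors of 0.983 to 1.02, robust quasi-likelihood F test, no covariates), with adjustment after Benjamini and Hochberg over all features. SE is the log2 fold change over the square root of F. CPM (counts to a total of 1000000) carry the TMM factors, and TPM use annotated lengths. Exact permutation tests of 3 against 3 cannot go below p = 0.1 (two-sided), so none is given. Steps were tested on simulated data.

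Alternatives were DESeq2 1.42.0, limma-voom (limma 3.58.1), RLE and upper-quartile normalization, other filters, the replicate number as a block, each library left out, and genes with every transcript listed. The members, lists and tests were chosen with earlier results of these data known. Named genes are Cep41, called members, members with an unadjusted p under 0.05, and for each role the 2 members with the highest TPM and the one with the smallest p. Bbs9, Ift74, Bbs4, Wdr19, Wdr35, Ttc21b, the single muscle and motile cilia genes and the promoter examples were named after their values were seen.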

Additional observations from a re-analysis of the deposited data

How the results depend on the processing

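Over the alternatives, 299 of 336 log2 fold changes of single genes and transcripts kept their direction and their side of the call rule. Of 90 counts and medians, 69 stayed close to the main value (counts within 1.5 times, medians within 1 SD of the per-library median, 0.0861). Cep41 stayed called with a log2 fold change of 1.85 to 2.16 except without the counts of Cep41-204, at 0.84 (unadjusted p = 0.0106 in edgeR's test). Its adjusted p ranged from 4.86e-11 with DESeq2 to 0.548 with the replicate block. The number of members called higher was 1 with upper-quartile normalization, 1 with the replicate block, 0 among the 4 genes with every transcript listed, and 1 to 2 with 1 library left out (Cep95 joined Cep41 without control replicate 1, and Cep290 joined it without degenerated replicate 1). The number called lower was 1 with DESeq2 and 0 to 1 with 1 library left out (Cep85 without control replicate 1). Among the fully listed genes, 0 were higher and 4 lower in value. With 1 library left out, 17 to 26 members were higher and 27 to 36 lower in value, and their median log2 fold change was -0.14 to -0.02. Transcripts called higher were 1 with RLE, 1 with a mean count of at least 10, 1 with the replicate block, and 1 to 3 with 1 library left out (most without control replicate 1). Transcripts called lower were 2 with DESeq2 and 0 to 1 with 1 library left out. The correlations of same-numbered libraries were 0.16, -0.0905 and 0.0674. They were not set beside those of other pairs, so they cannot settle whether replicate numbers pair the libraries. With the replicate block Ift140 had a log2 fold change of 1.10 (unadjusted p = 0.0365 in edgeR's test) and Cep41-201 one of -0.75. Upper-quartile normalization left Ift140 at 1.12 (unadjusted p = 0.0103 in edgeR's test). Directions turned when 1 library was left out for Bbs10 (-0.14 to 0.35), Bbs12 (-0.14 to 0.10), Cep55 (-1.57 to 0.18), Cep57 (-0.46 to 0.091), Ift122 (-0.040 to 0.46), Tctn3 (-0.14 to 1.10), Cep41-201 (-0.50 to 0.67) and Cep41-206 (-2.34 to 6.41). The causes were not tested. Levels were lowest for the 14 members under 10 CPM, and the part of depth in these changes was not tested. How the counting divided reads between transcripts that share most bases is not known.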

Other observations

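Genes within 500 kb of Cep41 were read after the data were seen. Of 22 listed genes, Cep41 included, 10 were tested and 10 had 0 counts in every library. Mest and Copg2, on the side of the Cep41-201 start, had log2 fold changes of -0.33 (SE 0.20) and -0.04 (SE 0.10). Tmem209, which lies beyond the end of Cep41, had 19, 47 and 17 counts in control libraries and 68, 88 and 70 in degenerated libraries. Its groups did not overlap, at a log2 fold change of 1.53 (SE 0.51, unadjusted p = 0.0239 in edgeR's test), which does not meet the call rule. Klhdc10 and Ube2h had log2 fold changes of 0.57 (SE 0.42) and 0.07 (SE 0.10).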
